A study of Mus musculus with 2 samples.

Results

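Collagens are the trimeric proteins of the extracellular matrix, and each chain of a trimer is the product of its own gene. The 44 genes described here are all genes of the deposited matrix whose symbol has the form of a numbered collagen type and chain, out of 31053 genes in all. Every one of the 44 had at least 1 UMI (unique molecular identifier, 1 counted RNA molecule) in the cells kept here, from 1 UMI of Col6a6 to 35468 UMIs of Col1a1. They fall into 8 families of structure, and 33 of them had at least 100 UMIs.

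The samples were olfactory epithelium of a male C57BL/6 mouse, taken at postnatal day 28 after unilateral naris occlusion at postnatal day 14, which blocks the air flow through 1 nostril. The groups were the closed side (left) and the open side (right), with 1 library each. The sample labels speak of 1 mouse and the design text of mice, no animal without occlusion was analysed here, and the cells were dissociated, frozen and passed through dead cell removal before capture with the Chromium 3' v3 kit. The libraries are called library 1 and library 2, because no label or file ties a barcode ending to a side. No side is therefore compared, ratios run library 2 over library 1, and with 1 library each there is no replicate error and no test.

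Library 2 had 7990 barcodes and library 1 had 4501, of which 5266 and 3032 were kept, 8298 cells in all. The kept cells had a median of 5139.5 UMIs in library 2 and 5528 UMIs in library 1. The libraries shared 12 barcode sequences, 6 of them among the kept cells of both. Clustering gave 31 clusters without any collagen gene among the 2000 variable genes, and no collagen was a marker, so no chain set the border of a class. The classes are called "-like" because they rest on marker genes.

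Fibrillar collagens form the ropes of bone, skin and submucosa, and smaller chains such as type V and type XI join these fibrils. Type IV collagens form the sheet of every basement membrane, the layer on which an epithelium and a blood vessel sit. Type VII and type XVII collagens tie basal epithelial cells to that layer, and fibril-associated collagens lie on the surface of fibrils. In the olfactory mucosa the basement membrane carries the horizontal basal cells, the reserve stem cells of the epithelium. Beneath it lie Bowman's glands, vessels, fibroblasts, axon bundles wrapped in olfactory ensheathing glia, and bone.

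Levels are given as CPM, the UMIs of a gene per 1000000 UMIs summed over the cells of a class, with exact 95% Poisson intervals that cover counting error only. UMIs come from the 3' end and are not scaled by gene length, so levels are compared between classes for the same chain and not between chains. A source class is called resolved where it held at least 20 UMIs of the chain, had the highest CPM with an interval above that of the next class, and was the highest in each library. The 18 classes with at least 30 cells were ranked. Of the 44 chains 26 had a resolved source class, against 31.3% of all 17139 genes with enough UMIs. The clustering used 2000 variable genes and no collagen, so only a part of that background could help to set the classes.

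The fibroblast-like cluster was the source of 15 chains, against 1.81% of all genes tested. Horizontal basal cell-like (HBC-like) cells were the source of Col7a1, Col17a1 and Col25a1, against 1.09% of genes. Endothelial-like cells were the source of Col4a1, Col4a2 and Col18a1 (background 1.83%), and olfactory ensheathing glia-like cells of Col12a1, Col16a1 and Col28a1 (background 2.21%). Immediate neuronal precursor-like (INP-like) cells were the source of Col9a2 (background 2.09%), and Bowman's gland-like cells of Col9a1 (background 0.729%). No chain had its resolved source in olfactory sensory neuron-like (OSN-like) cells, mature (background 5.08%) or immature (2.16%), or in GBC-like cells (globose basal cells, the dividing progenitors of neurons, 2.33%). Nor did any chain have one in sustentacular-like cells, which support the neurons (1.7%), or in respiratory ciliated-like cells (3.99%). The gland duct-like (0.414%), ionocyte-like (0.589%) and tuft-like microvillous (0.438%) classes had none either, nor did neutrophil-like (1.2%), B lineage-like (0.992%), T or NK-like (1.31%) and macrophage-like cells (1.28%).

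Some of these calls depend on few cells or on the filter. In library 2 alone the calls for Col16a1, Col18a1 and Col28a1 ended, and in library 1 alone those for Col4a5, Col8a1, Col12a1, Col14a1, Col16a1, Col18a1, Col24a1 and Col28a1 ended. Those for Col8a1, Col12a1, Col18a1 and Col28a1 ended without the 3 cells with most UMIs of the chain. Ranking the 26 pericyte-like cells as well, a choice made after seeing the data, ended those for Col4a1, Col4a2, Col4a5, Col6a3 and Col25a1. Without a cell filter the calls for Col4a2 and Col4a5 ended and Col9a1 was resolved in olfactory ensheathing glia-like cells. With at most 5% mitochondrial UMIs those for Col11a2, Col16a1, Col22a1, Col24a1 and Col28a1 ended and Col12a1 was resolved in the fibroblast-like class. Under that filter the olfactory ensheathing glia-like class was not among the ranked classes. Its calls for Col12a1, Col16a1 and Col28a1 therefore could not be kept.

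**Figure D1:**
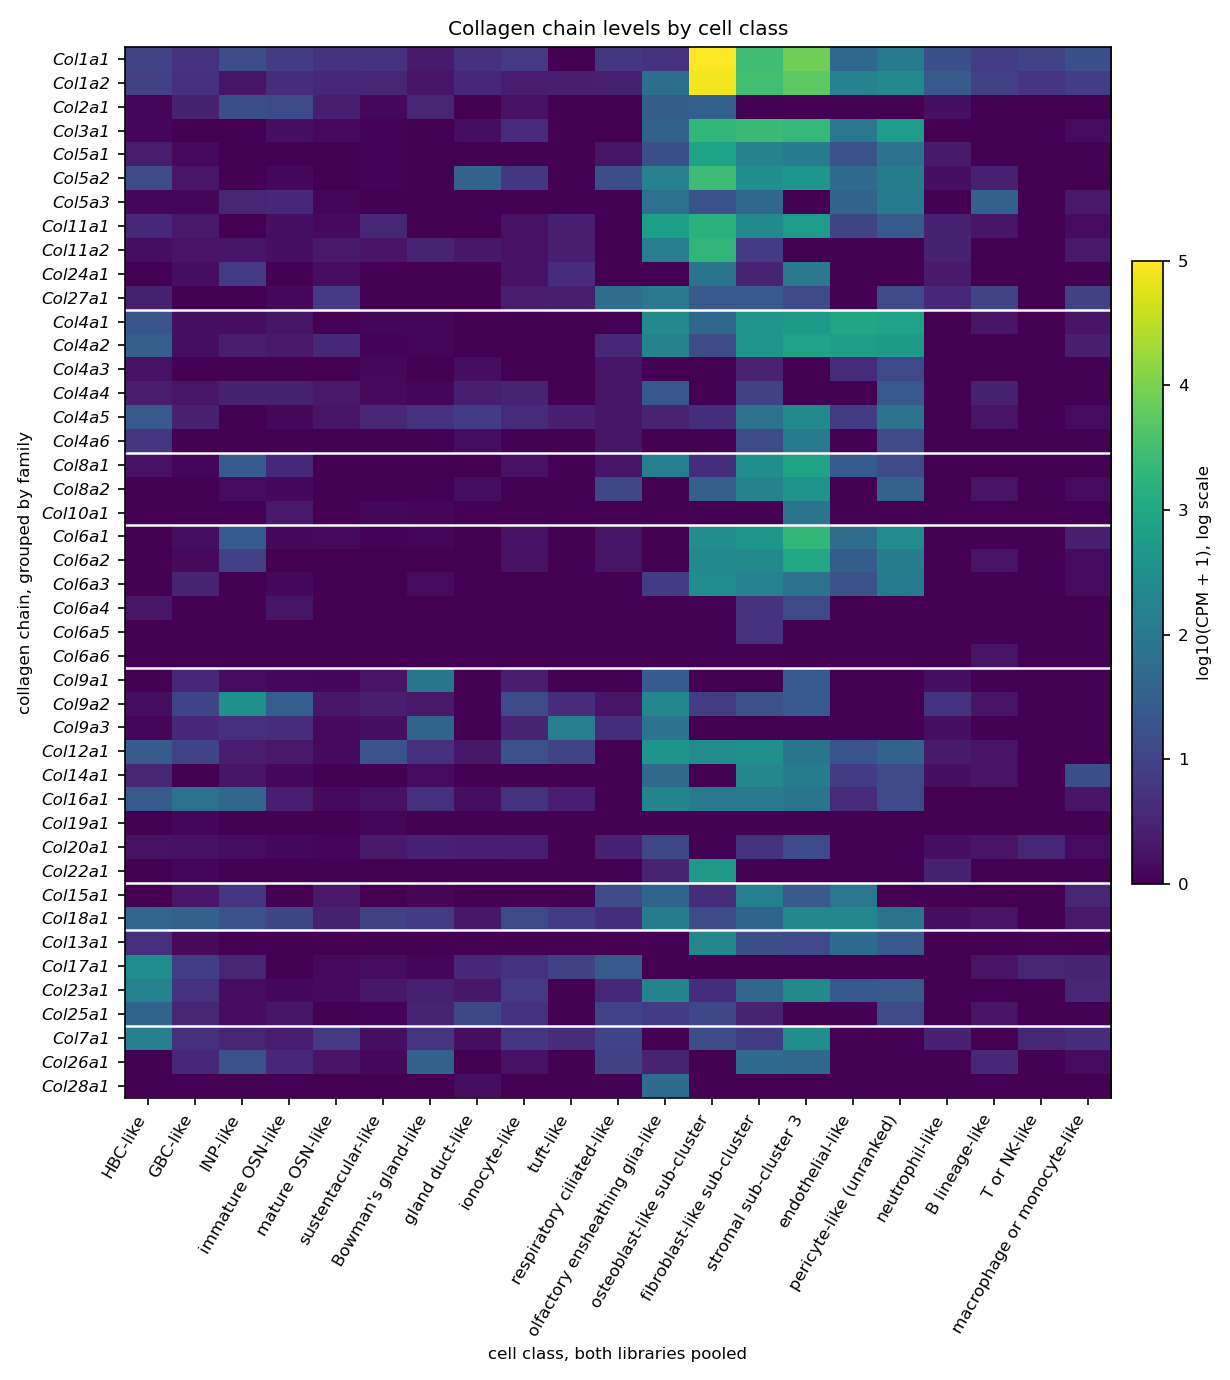
Levels of the 44 collagen chains (rows, grouped by family, white lines between families) in 21 cell classes or sub-clusters (columns), as log10 of CPM + 1 over both libraries. The brightest cells are Col1a1 and Col1a2 in the osteoblast-like sub-cluster, and single bright cells outside the stromal columns are Col9a2 in INP-like, Col9a1 in Bowman's gland-like, Col9a3 in tuft-like and Col17a1 in HBC-like cells.

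Collagen transcripts were concentrated in few cells. The fibroblast-like cluster had 168 cells, 2.02% of the kept cells, and held 67459 of the 79292 collagen UMIs, or 85.1% (exact binomial 95% interval 84.8% to 85.3%). HBC-like cells held 4.20%, olfactory ensheathing glia-like cells 1.84%, INP-like cells 1.38%, Bowman's gland-like cells 1.33%, GBC-like cells 1.25% and endothelial-like cells 0.986%. Mature OSN-like cells, 14.4% of the kept cells, held 0.262%. The share of the fibroblast-like cluster was 85.5% in library 2 and 84.3% in library 1. With at most 5% mitochondrial UMIs per cell the fibroblast-like class held 8.81%. Of the 41 cells called osteoblast-like below, that filter removed 17 and left 3 in the fibroblast-like class, and the other 21 formed a cluster of their own that held 84.4% of collagen UMIs.

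The fibroblast-like cluster was not uniform, and a finer clustering, added after its genes had been seen, split it in 3. A sub-cluster of 41 cells (28 in library 2, 13 in library 1) was led by Bglap, Bglap2, Ifitm5 and Ibsp, genes of bone-forming cells, held 8 markers of the osteoblast list and is called osteoblast-like. A sub-cluster of 107 cells (58 in library 2, 49 in library 1) was led by Mfap5 and Sfrp2, held 4 fibroblast markers and is called fibroblast-like. The remaining 20 cells (17 in library 2, 3 in library 1) were led by Slc7a5, Slc5a5 and Tnmd and stay unnamed as sub-cluster 3. Bglap, which encodes osteocalcin, was at 29738 CPM in the osteoblast-like sub-cluster, against 46 CPM in the fibroblast-like sub-cluster and 0 in sub-cluster 3. The cartilage genes Acan and Matn1 were at 66 and 0 CPM in the osteoblast-like sub-cluster.

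The 41 osteoblast-like cells, 0.494% of the kept cells, held 75.3% of all collagen UMIs (75.0% to 75.6%), 75.0% in library 2 and 75.8% in library 1. Summed over all chains, collagen stood at 206592 CPM in these cells, against 12581 CPM in the fibroblast-like sub-cluster, 23963 CPM in sub-cluster 3, 3189 in olfactory ensheathing glia-like cells and 836 in HBC-like cells. The CPM of every other gene in these cells is a share of the same total. The fibroblast-like sub-cluster held 7.29% of collagen UMIs and sub-cluster 3 held 2.53%. The values of sub-cluster 3 rest on library 2, where it had 26972 CPM and 3.76% of collagen UMIs. In library 1, from 3 cells, it had 6003 CPM and 0.258%, below the 11491 CPM of the fibroblast-like sub-cluster there.

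With sub-clusters of at least 30 cells ranked as classes of their own, 24 chains were resolved, against 30.1% of all genes tested. The osteoblast-like sub-cluster was then the source of 10, namely Col1a1, Col1a2, Col5a1, Col5a2, Col6a3, Col11a1, Col11a2, Col13a1, Col22a1 and Col24a1, against 0.706% of genes. The fibroblast-like sub-cluster was the source of 4, namely Col4a5, Col8a1, Col8a2 and Col14a1, against 1.07%. Sub-cluster 3, with 20 cells, was too small to be ranked. Its levels of Col4a5, Col8a1, Col8a2 and Col24a1, given below, were above those of the sub-cluster called their source. The call was lost for Col3a1, Col6a1, Col6a2 and Col12a1. The stromal chains below are therefore given by sub-cluster.

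Col1a1 (chr11:94936224-94953042, + strand, mm10), the major chain of type I collagen, was at 113195 CPM in library 2 and 117107 CPM in library 1 of the osteoblast-like sub-cluster. In the fibroblast-like sub-cluster it was at 3298 CPM in library 2 and 2405 CPM in library 1. All 41 osteoblast-like cells had a UMI of it, and no cell held more than 11.3% of their Col1a1 UMIs. Col1a2 (chr6:4504814-4541544, + strand), which joins Col1a1 in the type I trimer, was at 81966 and 79342 CPM in libraries 2 and 1 of the osteoblast-like sub-cluster. It was at 3426 and 2723 CPM in libraries 2 and 1 of the fibroblast-like sub-cluster. In both libraries the 2 sub-clusters stayed far apart for either chain, although within the fibroblast-like sub-cluster library 2 was above library 1 with intervals that do not overlap. Sub-cluster 3 had 9373 CPM of Col1a1 in library 2 and 1417 CPM in library 1, from 671 and 17 UMIs.

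Both type XI chains and the type V chains Col5a1 and Col5a2, which are built into the core of fibrils, were also highest in the osteoblast-like sub-cluster. Col11a2 (chr17:34039437-34066685, + strand) was at 1831 CPM there (1679 to 1994), with 1810 CPM in library 2 and 1871 CPM in library 1. It was at 142 CPM in olfactory ensheathing glia-like cells and at 6.53 CPM in the fibroblast-like sub-cluster, from 3 UMIs, and no UMI was counted in sub-cluster 3. Col11a1 had 1561 CPM in the osteoblast-like sub-cluster, against 670 CPM in olfactory ensheathing glia-like cells and 233 CPM in the fibroblast-like sub-cluster. Col5a2 (chr1:45374321-45503282, − strand) had 2645 CPM in the osteoblast-like sub-cluster, with 2545 in library 2 and 2831 in library 1, against 303 CPM in the fibroblast-like sub-cluster and 150 CPM in olfactory ensheathing glia-like cells. Col5a1 (chr2:27886425-28039514, + strand) had 740 CPM in library 2 and 901 CPM in library 1 of the osteoblast-like sub-cluster, and 162 CPM in library 2 and 179 CPM in library 1 of the fibroblast-like sub-cluster.

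Some chains with fewer UMIs also had their highest level among ranked classes in the osteoblast-like sub-cluster. Col22a1 (chr15:71795795-72034227, − strand), a fibril-associated chain known from the junction of muscle and tendon, had 137 of its 143 UMIs there. Its level was 516 CPM in library 2 and 396 CPM in library 1, 24 of the 41 cells had a UMI, and none was counted in the other sub-clusters. Col24a1, a fibrillar chain known from developing bone, had 24 UMIs in the osteoblast-like sub-cluster, 83.1 CPM, against 2.18 CPM in the fibroblast-like sub-cluster and 95.7 CPM (41.3 to 189) in sub-cluster 3. Col13a1, a membrane-spanning chain, was at 197 CPM in the osteoblast-like sub-cluster, with 192 in library 2 and 208 in library 1, against 54.5 CPM in endothelial-like cells and 15.2 CPM in the fibroblast-like sub-cluster.

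Other stromal chains had the reverse order. Col14a1 (chr15:55307750-55520803, + strand), a fibril-associated chain of soft connective tissue, was at 207 CPM in the fibroblast-like sub-cluster, with 244 in library 2 and 159 in library 1. No Col14a1 UMI was counted in the osteoblast-like sub-cluster, where the interval reaches 12.8 CPM. Col8a1 (chr16:57624258-57754737, − strand) and Col8a2 (chr4:126286793-126314330, + strand), the 2 chains of the type VIII network, were at 303 and 168 CPM in the fibroblast-like sub-cluster. They were at 3.46 and 31.2 CPM in the osteoblast-like sub-cluster, and at 766 and 347 CPM in the 20 cells of sub-cluster 3. Col15a1, a chain of the basement membrane zone, had no resolved source and was at 146 CPM in the fibroblast-like sub-cluster, 92.9 CPM in endothelial-like cells and 3.46 CPM in the osteoblast-like sub-cluster.

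Type III collagen, the fibrillar partner of type I in soft tissue, did not separate the sub-clusters by level. Col3a1 (chr1:45311538-45349706, + strand) was at 2609 CPM in the fibroblast-like sub-cluster, 2029 CPM in the osteoblast-like sub-cluster and 2094 CPM in sub-cluster 3. The order of the first 2 turned between libraries, since the fibroblast-like sub-cluster had 2656 CPM in library 2 and 2549 CPM in library 1, and the osteoblast-like sub-cluster 1448 CPM in library 2 and 3108 CPM in library 1. In the 3 cells of sub-cluster 3 in library 1 there were 5 UMIs. In the osteoblast-like sub-cluster 21 of 41 cells had a Col3a1 UMI and 1 cell held 33.4% of the UMIs, whereas in the fibroblast-like sub-cluster 103 of 107 cells had one and the top cell held 5.92%. As a share of Col3a1 and Col1a1 UMIs together, Col3a1 made up 47.3% in the fibroblast-like sub-cluster (45.3% to 49.3%), 20.3% in sub-cluster 3 and 1.74% in the osteoblast-like sub-cluster. In the osteoblast-like sub-cluster the share was 1.26% in library 2 (1.12% to 1.42%) and 2.59% in library 1 (2.31% to 2.88%), and in the fibroblast-like sub-cluster 44.6% in library 2 and 51.5% in library 1.

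Type VI chains form beaded filaments around cells, and 2 of them were highest in sub-cluster 3. Col6a1 (chr10:76708792-76726168, − strand) was at 1998 CPM in sub-cluster 3 (1706 to 2325), with 2025 CPM in library 2 and 1834 CPM in library 1, from 3 cells in library 1. It was at 433 CPM in the fibroblast-like sub-cluster and 277 CPM in the osteoblast-like sub-cluster. Col6a2 (chr10:76595762-76623630, − strand), the neighbouring gene on the same strand, was at 993 CPM in sub-cluster 3, 224 CPM in the fibroblast-like and 232 CPM in the osteoblast-like sub-cluster. Col6a3 (chr1:90765923-90843971, − strand), the third classical chain, was lowest in sub-cluster 3 at 71.8 CPM, from 6 UMIs, against 157 CPM in the fibroblast-like and 273 CPM in the osteoblast-like sub-cluster. The later chains Col6a4, Col6a5 and Col6a6 had 11, 3 and 1 UMIs in all kept cells and no class could be given.

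**Figure D2:**
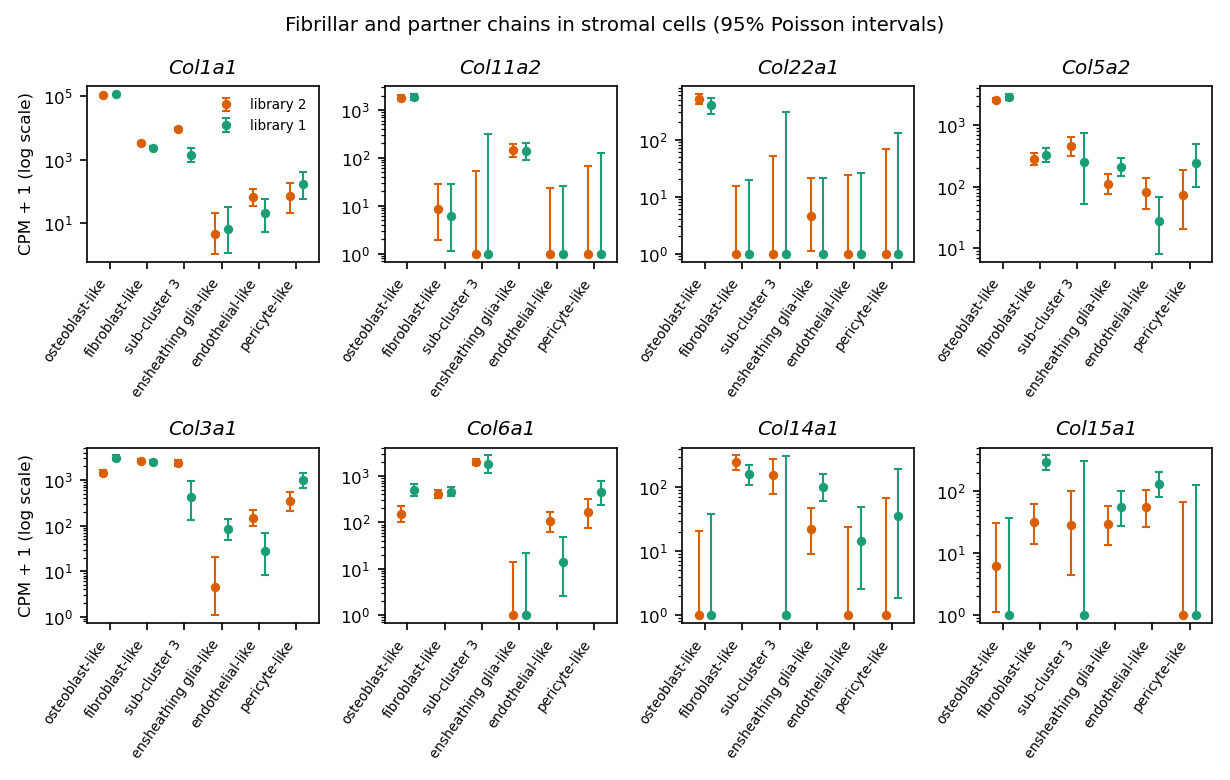
Levels of 8 chains as CPM + 1 on a log scale, with exact 95% Poisson intervals, in the osteoblast-like and fibroblast-like sub-clusters, stromal sub-cluster 3, olfactory ensheathing glia-like, endothelial-like and pericyte-like cells, library 2 left of library 1. Col1a1, Col11a2, Col22a1 and Col5a2 are highest in the osteoblast-like sub-cluster in both libraries, Col14a1 is at 0 there, and Col15a1 in the fibroblast-like sub-cluster is at 30.9 CPM in library 2 and 294 CPM in library 1.

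Low counts of type I collagen also appeared in epithelial and neuronal classes. Among mature OSN-like cells, 1.84% had a Col1a1 UMI (0.681% when each cell was thinned to 2000 UMIs), against 94.6% of fibroblast-like cells (91.6% thinned), with medians of 5065 and 4121 UMIs per cell. The Col1a2 share of Col1a2 and Col1a1 UMIs together was 41.9% in the fibroblast-like cluster. It was 44.3% in HBC-like cells (32.4% to 56.7%), 47.9% in GBC-like cells, 39.0% in mature OSN-like cells and 37.8% in sustentacular-like cells (28.2% to 48.1%), all with intervals that hold the 41.9%. Free RNA from a single source would give the same ratio in every class, and so would cells that make both chains in that proportion. Whether these counts are free RNA or expression was not tested.

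In 4 ranked classes the interval of the ratio did not hold that value. Olfactory ensheathing glia-like cells had 29 UMIs of Col1a2 and 2 of Col1a1, a Col1a2 share of 93.5% (78.6% to 99.2%), with 93.3% in library 2 and 93.8% in library 1. Endothelial-like cells had 52 UMIs of Col1a2 and 14 of Col1a1, a share of 78.8% (interval above 41.9%, up to 87.9%), but 1 of the 64 cells held 63.5% of the Col1a2 UMIs. Neutrophil-like cells had 60.7% (47.3% to 72.9%). In the glia-like cells 18 of 80 cells had a Col1a2 UMI and the top cell held 17.2% of them. INP-like cells went the other way, with 2 UMIs of Col1a2 and 30 of Col1a1, a share of 6.25% (0.766% to 20.8%).

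Both type I chains were found together in 157 of 168 cells of the fibroblast-like cluster, 93.5% (88.6% to 96.7%), and in 89.0% after thinning to 2000 UMIs. Col1a1 alone was found in 2 cells and Col1a2 alone in 7. Every osteoblast-like cell held both. For the type V pair Col5a1 and Col5a2, 45.8% of cells held both, and for Col6a1 and Col6a2 44.0%, shares that depth limits, since they were 33.5% and 26.5% after thinning.

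Among ranked classes, Col4a1 and Col4a2 were highest in endothelial-like cells. Col4a1 (chr8:11198423-11312826, − strand) was at 916 CPM in endothelial-like cells (813 to 1029), with 949 CPM in library 2 and 881 CPM in library 1. It was at 407 CPM in the fibroblast-like sub-cluster, 233 CPM in olfactory ensheathing glia-like cells and 18.6 CPM in HBC-like cells. Col4a2 (chr8:11312805-11449287, + strand) was at 612 CPM in endothelial-like cells (528 to 705), with 540 CPM in library 2 and 689 CPM in library 1, against 403 CPM in the fibroblast-like sub-cluster, 168 CPM in olfactory ensheathing glia-like cells and 31.4 CPM in HBC-like cells. The 26 pericyte-like cells, too few to be ranked, had 751 CPM of Col4a1 (577 to 961) and 525 CPM of Col4a2 (381 to 704), intervals that overlap those of endothelial-like cells. The 20 cells of sub-cluster 3 had 479 CPM of Col4a1 (342 to 652) and 766 CPM of Col4a2 (590 to 978), for Col4a2 above the endothelial-like level with an interval that overlaps it. The source call for both chains ended when classes of at least 20 cells were ranked. Of 1194 mature OSN-like cells none had a Col4a1 UMI, where the exact binomial 95% interval for the share of cells with a UMI reaches 0.308%, and 15 had a Col4a2 UMI, 1.26% (0.705% to 2.06%).

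Both chains enter the same trimer, and their genes lie head to head with start sites 21 bases apart. Over the 18 ranked classes their levels on the log2(CPM + 1) scale had a Pearson correlation of 0.97, given as a description since the classes share libraries and depth. Both chains were found together in 34 of 64 endothelial-like cells, 53.1%, and in 40.0% after thinning, with Col4a1 alone in 13 cells and Col4a2 alone in 4. The windows from 250 bases before to 50 bases after each start are shown because the pair had like levels and starts so near each other. They overlap by 78 bases, and are from RefSeq on GRCm38.p6, the 5' to 3' strand of each gene, at chr8:11312777-11313076 (− strand) and chr8:11312555-11312854 (+ strand). Capitals mark matches, on either strand, to 4 short motifs that were searched, namely the TATA box (TATAAA), the CCAAT box, the GC box (GGGCGG) and the E-box (CAGCTG).
Col4a1: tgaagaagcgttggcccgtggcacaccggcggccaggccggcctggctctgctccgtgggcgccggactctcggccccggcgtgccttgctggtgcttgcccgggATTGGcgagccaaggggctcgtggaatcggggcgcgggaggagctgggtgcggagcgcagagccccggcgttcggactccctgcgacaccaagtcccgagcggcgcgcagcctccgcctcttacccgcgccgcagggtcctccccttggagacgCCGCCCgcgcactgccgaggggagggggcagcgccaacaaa
Col4a2: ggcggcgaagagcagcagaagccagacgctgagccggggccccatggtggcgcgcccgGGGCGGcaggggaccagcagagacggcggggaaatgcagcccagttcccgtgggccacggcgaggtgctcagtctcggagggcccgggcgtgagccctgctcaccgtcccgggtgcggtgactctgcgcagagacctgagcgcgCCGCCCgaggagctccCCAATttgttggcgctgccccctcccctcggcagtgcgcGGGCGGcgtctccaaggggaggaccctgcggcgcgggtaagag

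No TATAAA was found in either window, CCAAT was found once in each, and GGGCGG once in the Col4a1 window and 3 times in the Col4a2 window. The GGGCGG match of the Col4a1 window lies in the overlap and is the same site as the last match of the Col4a2 window. Among 32851 RefSeq windows of the same length, 13.6% held TATAAA, 37.4% CCAAT, 35.7% GGGCGG and 16.3% CAGCTG. Windows were found for 35 of the 44 chains, 38 windows in all, and 60.5% of these held GGGCGG and 13.2% TATAAA. A match is a description of letters and says nothing of binding.

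The other type IV chains were sparse. Col4a5 (chrX:141475385-141689234, + strand) was at 66.1 CPM in the fibroblast-like cluster, 67.6 in library 2 and 63.7 in library 1, against 24.1 CPM in HBC-like cells, and the 20 cells of sub-cluster 3 had 239 CPM. The 26 pericyte-like cells had 71.5 CPM of it (26.3 to 156), and ranking them ended the call. Col4a6, head to head with Col4a5, had 40 UMIs, 15 of them in the fibroblast-like cluster. Col4a4 and Col4a3, which pair in kidney and lung basement membranes and lie head to head on chromosome 1, had 64 and 15 UMIs and no resolved source.

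Col18a1 (chr10:77052178-77166548, − strand), the basement membrane chain that releases endostatin, was spread over more cells than most, with 689 cells holding a UMI. It was at 218 CPM in endothelial-like cells, 205 in library 2 and 232 in library 1, and at 126 CPM in olfactory ensheathing glia-like cells. Without the 3 endothelial-like cells with most UMIs, which held 33.8% of them, the call ended. HBC-like cluster 6 had 94.3 CPM and GBC-like cells had 35.2 CPM, and endothelial-like cells held 7.60% of all UMIs of this chain.

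Horizontal basal cells hold on to the basement membrane by hemidesmosomes, in which type XVII collagen spans the membrane, and by anchoring fibrils of type VII collagen beneath. Col17a1 (chr19:47646344-47692094, − strand) was at 272 CPM in library 2 and 259 CPM in library 1 of HBC-like cells. Its next class, respiratory ciliated-like cells, was at 23.1 CPM in library 2 and 23.8 CPM in library 1, where 3 cells held 84.6% of the UMIs. Col7a1 (chr9:108953586-108984875, + strand) was at 161 CPM in library 2 and 121 CPM in library 1 of HBC-like cells, against 37.3 CPM in the fibroblast-like cluster. HBC-like cells with a UMI made up 64.3% for Col17a1 (44.3% thinned) and 41.8% for Col7a1 (26.8% thinned). Mature OSN-like cells with a UMI made up 0.168% and 2.85% (0.170% and 1.36% thinned), at a median of 5065 UMIs against 4131 UMIs in HBC-like cells.

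HBC-like cells fell in 2 clusters, which differed in these chains. Cluster 6 (359 cells) was led by Car12, Igfbp2 and Nrcam and had 1204 CPM of Krt5 and 867 CPM of Trp63, the transcription factor that keeps these cells in reserve. Cluster 4 (414 cells) was led by Krt15 and had 692 CPM of Krt5, 311 CPM of Trp63 and 759 CPM of Krt15, against 40 CPM of Krt15 in cluster 6. The median cell held 3090 UMIs in cluster 6 and 5011 UMIs in cluster 4.

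Col17a1 was at 432 and 414 CPM in libraries 2 and 1 of cluster 6, against 178 and 163 CPM in libraries 2 and 1 of cluster 4. Col7a1 was at 303 and 231 CPM in libraries 2 and 1 of cluster 6, against 77.8 and 53.5 CPM in cluster 4. The membrane-spanning chain Col23a1 had a wider gap than Col17a1 and Col7a1, at 400 and 378 CPM in libraries 2 and 1 of cluster 6 and 23.6 and 18.1 CPM in cluster 4. Col25a1 (chr3:130131501-130599877, + strand), a membrane-spanning chain known from neurons, ran the other way, at 0 and 3.08 CPM in libraries 2 and 1 of cluster 6, from 2 UMIs in 1 cell, against 72.3 and 53.5 CPM in cluster 4. In each of the 4 chains the intervals of the clusters did not overlap in either library.

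The same direction as Col17a1 held for the basement membrane chains in these cells. Col4a2 was at 76.9 CPM in cluster 6 and 4.02 CPM in cluster 4, Col4a1 at 42.8 and 4.02 CPM, and Col18a1 at 94.3 CPM in cluster 6. Col16a1 was at 42.2 CPM in cluster 6 and 14.1 CPM in cluster 4. Col12a1 did not separate them, at 33.5 CPM (24.8 to 44.1) in cluster 6 and 24.5 CPM (18.8 to 31.5) in cluster 4.

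**Figure D3:**
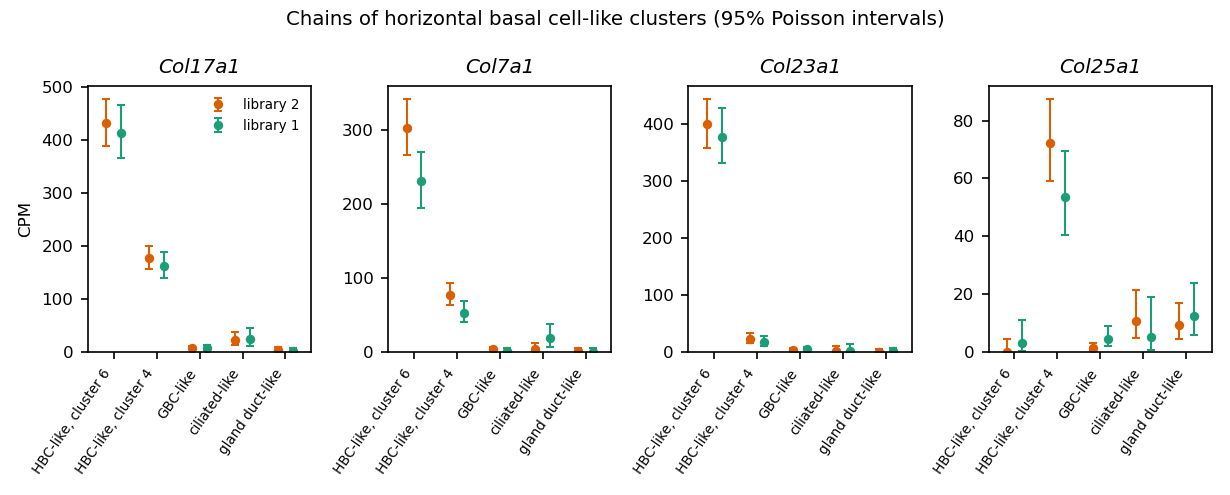
Levels in CPM, with exact 95% Poisson intervals, of Col17a1, Col7a1, Col23a1 and Col25a1 in HBC-like cluster 6, HBC-like cluster 4, GBC-like, respiratory ciliated-like and gland duct-like cells, library 2 left of library 1. The first 3 chains are highest in cluster 6, and Col25a1 is highest in cluster 4, in both libraries.

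The RefSeq window of Col17a1 (chr19:47691993-47692292, − strand, GRCm38.p6) is shown because this chain set HBC-like cells apart from every other ranked class. It held TATAAA at 2 places, CCAAT once on the opposite strand, CAGCTG once and no GGGCGG. Its GC content was 46.3%, against 74.0% for Col4a1 and 73.7% for Col4a2.
Col17a1: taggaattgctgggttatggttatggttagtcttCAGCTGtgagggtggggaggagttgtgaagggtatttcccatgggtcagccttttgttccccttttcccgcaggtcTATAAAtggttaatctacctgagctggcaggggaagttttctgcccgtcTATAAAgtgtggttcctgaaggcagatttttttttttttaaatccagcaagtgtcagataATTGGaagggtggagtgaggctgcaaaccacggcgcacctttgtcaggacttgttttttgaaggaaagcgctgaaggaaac

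Col23a1 as a whole had no resolved source, since olfactory ensheathing glia-like cells were at 181 CPM (144 to 224) and all HBC-like cells at 160 CPM (148 to 173). Both Col17a1 and Col7a1 were found in 247 of 773 HBC-like cells, 32.0% (28.7% to 35.4%), and in 15.4% after thinning. No Col17a1 UMI was counted in olfactory ensheathing glia-like cells or in the fibroblast-like sub-cluster, with intervals that reach 8.05 and 8.03 CPM. Over the 18 ranked classes, the genes whose profile was most like that of Col17a1 were Krt14, Tns4, Defb1, Dlk2 and Krt17, with Pearson correlations of log2(CPM + 1) from 0.91 to 0.97 among 14707 genes.

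Along the neuronal lineage, Col16a1 and Col18a1 were highest in GBC-like cluster 22 and Col9a2 in INP-like cluster 14. Col2a1 was about level in INP-like cluster 14 and immature OSN-like cluster 7, its highest clusters. The stages are the GBC-like clusters 5 and 22 (the second led by Neurod1), the INP-like clusters 15 (Neurod1) and 14 (Tex15, Gng8), the immature OSN-like clusters 7 and 10 (Gap43) and the mature OSN-like clusters 3 and 1 (Omp). Neurod1 was at 1611 CPM in cluster 22 and 1395 CPM in cluster 15, Gng8 at 2139 CPM in cluster 14, Gap43 at 1691 CPM in cluster 7 and Omp at 5789 CPM in cluster 1. The order is that of these markers and not a measured time.

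Col9a2 (chr4:121039385-121055322, + strand), 1 of the 3 chains of type IX collagen and best known from cartilage, was at 2.16, 35.6, 296, 347, 38.3, 23.0, 1.22 and 0.823 CPM over these 8 clusters. In the INP-like class it was at 318 CPM in library 2 and 327 CPM in library 1, and 64.2% of cells had a UMI (40.0% thinned), against 0.503% of mature OSN-like cells (0.170% thinned). The median INP-like cell held 4691 UMIs. The next class, olfactory ensheathing glia-like cells, was at 207 CPM (168 to 253).

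Col16a1 (chr4:130047840-130099283, + strand), a fibril-associated chain of many tissues, came earlier, at 38.1, 160, 80.3, 2.95, 1.85, 1.18, 0.815 and 0 CPM over the 8 clusters. In cluster 22 library 2 had 187 CPM of it (160 to 217) and library 1 had 94.4 CPM (65.8 to 131), intervals that do not overlap. In cluster 15 the libraries had 82.3 CPM (library 2) and 73.9 CPM (library 1). In cluster 22 the top 3 cells held 26.1% of the UMIs. Col18a1 ran at 30.9, 50.3, 29.2, 1.97, 4.33, 15.9, 3.67 and 0.549 CPM, with a second, lower maximum in immature OSN-like cluster 10. Col2a1, the main chain of cartilage, was low throughout, at 1.30, 3.87, 10.9, 19.7, 21.6, 2.95, 3.67 and 0.274 CPM, and the 35 UMIs of cluster 7 lay in 31 cells.

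INP-like clusters 15 and 14 differed in these chains. Col16a1 and Col18a1 were at 80.3 and 29.2 CPM in cluster 15 and at 2.95 and 1.97 CPM in cluster 14. Col9a2 was about level, at 291 and 349 CPM in library 2 and 311 and 342 CPM in library 1 of clusters 15 and 14, while Col8a1 was at 51.1 CPM in cluster 14, where 43 of 215 cells had a UMI.

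**Figure D4:**
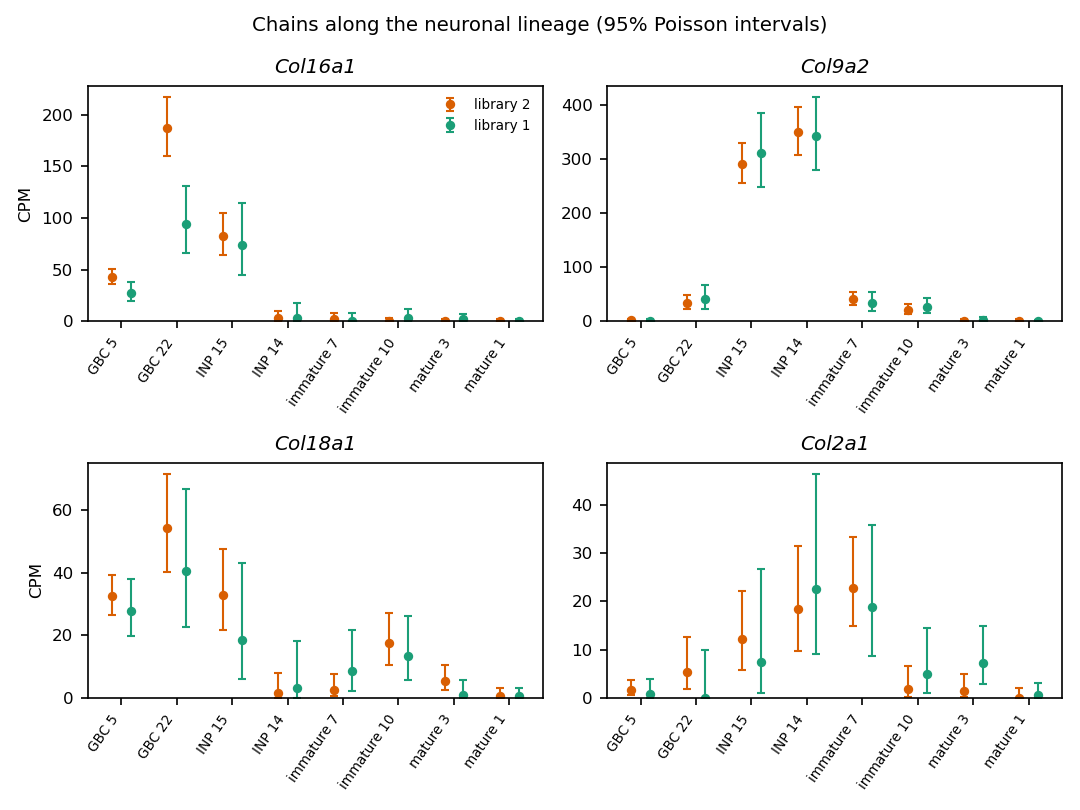
Levels in CPM, with exact 95% Poisson intervals, of Col16a1, Col9a2, Col18a1 and Col2a1 in 8 clusters ordered by stage markers, library 2 left of library 1. Col16a1 peaks in GBC-like cluster 22, Col9a2 in INP-like clusters 15 and 14, and both are near 0 in mature OSN-like clusters.

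The Col9a2 window (RefSeq, GRCm38.p6, chr4:121039316-121039615, + strand), shown as the promoter of the chain that marked the neuronal precursors, held GGGCGG at 3 places, CAGCTG once and neither TATAAA nor CCAAT, with capitals as above.
Col9a2: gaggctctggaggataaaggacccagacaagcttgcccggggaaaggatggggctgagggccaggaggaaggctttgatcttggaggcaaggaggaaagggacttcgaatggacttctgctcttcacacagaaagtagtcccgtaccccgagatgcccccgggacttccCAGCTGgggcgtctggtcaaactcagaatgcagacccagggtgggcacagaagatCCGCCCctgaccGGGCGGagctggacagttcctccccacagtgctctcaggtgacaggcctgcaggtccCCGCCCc

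The 3 type IX chains, which form 1 trimer in cartilage, were highest in 3 different classes. Col9a1 (chr1:24177610-24252684, + strand) had 462 of its 511 UMIs in Bowman's gland-like cells, and 459 of these in gland cluster 12. That cluster (265 cells) had 126 CPM in library 2 and 146 CPM in library 1, and 58.9% of its cells had a UMI (24.5% thinned, at a median of 9535 UMIs), against 0.0838% of mature OSN-like cells. Gland cluster 26 (80 cells), led by the odorant-binding protein genes Obp1a, Obp2a and Obp2b, had 1.67 CPM from 3 UMIs. The next class was olfactory ensheathing glia-like cells at 26.2 CPM (13.5 to 45.7).

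Cluster 12 was led by Bpifb3, Bpifb4, Dcpp3 and Chil6, of which the first 2 are in the Bowman's gland list and the others in the gland duct list. Its name changed to gland duct-like under a finer clustering, and the source of Col9a1 is better given as this cluster than as a gland class. The gland duct-like class itself, led by Bpifa1, Scgb3a1 and Reg3g, had no Col9a1 UMI in 163 cells, with an interval that reaches 2.05 CPM.

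Col9a3, the third chain, was highest in tuft-like microvillous cells, chemosensory cells marked here by Trpm5 and Il25, at 127 CPM in library 2 and 146 CPM in library 1, with a UMI in 48 of 80 cells. Olfactory ensheathing glia-like cells were at 80.7 CPM (56.8 to 111), an interval that overlaps the 107 to 167 of tuft-like cells, so the source was not resolved. Gland cluster 12 had 57.5 CPM of Col9a3, 56.8 in library 2 and 58.7 in library 1, against 7.25 CPM in cluster 26.

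Few INP-like and tuft-like cells held more than 1 of these chains, and after thinning few gland-like and glia-like cells held the pairs below. Of 345 Bowman's gland-like cells 77 held both Col9a1 and Col9a3, and 3 held both Col9a1 and Col9a2. Of 425 INP-like cells 273 held Col9a2, 3 held Col9a2 and Col9a3, and 1 held Col9a1. Of 80 tuft-like cells 1 held both Col9a3 and Col9a2. Among olfactory ensheathing glia-like cells 15 of 80 held both Col9a2 and Col9a3, and this was the only one of the 4 classes with all 3 chains above 20 CPM. Depth limits these counts, since the median cell held 10084 UMIs in Bowman's gland-like and 4691 UMIs in INP-like cells. After thinning, Col9a1 and Col9a3 were found together in 10 of 325 Bowman's gland-like cells, 3.08%. Col9a2 and Col9a3 were then found together in 1 of 72 glia-like, 1 of 413 INP-like and 0 of 74 tuft-like cells.

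**Figure D5:**
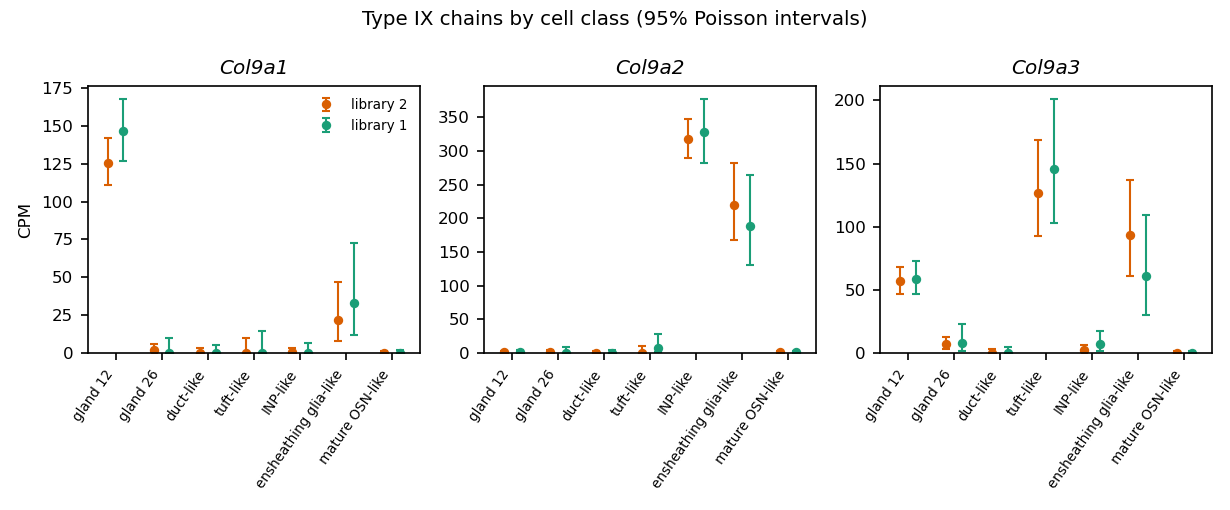
Levels in CPM, with exact 95% Poisson intervals, of the 3 type IX chains in gland clusters 12 and 26, gland duct-like, tuft-like, INP-like, olfactory ensheathing glia-like and mature OSN-like cells, library 2 left of library 1. Col9a1 is highest in gland cluster 12, Col9a2 in INP-like cells and Col9a3 in tuft-like cells, in both libraries.

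Further glandular and surface chains had modest levels. Col26a1 was at 53.1 CPM in gland cluster 12, with 44.5 in library 2 and 65.9 in library 1, and no UMI was counted in gland cluster 26. The fibroblast-like sub-cluster had 54.4 CPM of it (35.2 to 80.3), and no source was resolved. Col27a1, a fibrillar chain, was at 96.0 CPM in olfactory ensheathing glia-like cells (69.7 to 129) and at 59.3 CPM in respiratory ciliated-like cells (45.9 to 75.5), and was not resolved either. Col5a2 in gland duct-like cells was at 35.5 CPM, with a UMI in 38 of 163 cells.

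Olfactory ensheathing glia-like cells, which wrap the axons of sensory neurons and were marked by Fabp7 at 13088 CPM, held a wide set of chains in 80 cells. Col12a1 (chr9:79598991-79718831, − strand), a fibril-associated chain that bears load in tendon, was at 379 CPM (325 to 440), 366 in library 2 and 400 in library 1, against 274 CPM in the fibroblast-like cluster (240 to 312). Left without its 3 highest cells, or set against the fibroblast-like sub-cluster at 322 CPM (272 to 378), it was no longer resolved. Col16a1 was at 165 and 194 CPM in libraries 2 and 1, against 102 CPM in the fibroblast-like cluster. Col28a1 (chr6:7997808-8192617, − strand), a chain known from peripheral nerve, had 25 of its 26 UMIs in these cells, 46.7 CPM in library 2 and 66.6 CPM in library 1, in 18 of 80 cells.

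Col11a1 in these glia-like cells was at 686 and 644 CPM in libraries 2 and 1, and 65 of 80 cells had a UMI. The glia-like cells also had 233 CPM of Col4a1, 207 CPM of Col9a2, 181 CPM of Col23a1, 150 CPM of Col5a2 and 142 CPM of Col11a2 and of Col8a1. No UMI of Col6a1 was counted in them. Levels of Col3a1 came from 1 UMI in library 2 and 15 UMIs in library 1, and a single cell held as many of them as all the others together.

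The remaining chains are given by counts. Col5a3 had 141 UMIs, led by olfactory ensheathing glia-like cells at 65.4 CPM and endothelial-like cells at 38.4 CPM. Col20a1 had 61 UMIs in 61 cells, Col10a1 20 UMIs, of which 7 lay in a single cell of sub-cluster 3, and Col19a1 4 UMIs. Of the 44 chains 5 had fewer than 20 UMIs in all. For these the depth does not allow a source to be given, and a count near 0 does not show that a class lacks the chain.

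Genes that build, process, bind or degrade collagen, or inhibit its breakdown, were taken from 8 lists with their partners. They were counted by the class of highest CPM among members that reached 10 CPM in a ranked class. Of all genes with enough UMIs 1.81% were resolved in the fibroblast-like cluster. The share of all genes merely highest in a class was not counted. Of the fibril organisers, small proteoglycans and glycoproteins on fibrils, 11 of 12 were highest in the fibroblast-like cluster, 10 of them resolved. They were led by Dcn at 3824 CPM, Bgn at 2192 CPM and Lum at 1028 CPM, and the exception was Thbs1 at 831 CPM in neutrophil-like cells. Within the fibroblast-like cluster Dcn was at 1260 CPM in the osteoblast-like and 5967 CPM in the fibroblast-like sub-cluster, and Ogn at 10.4 and 653 CPM.

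Of 14 measured hydroxylation genes, whose products modify prolines and lysines of new chains, 6 were highest in the fibroblast-like cluster and 4 were resolved there. The 3 with the highest levels were Ppib at 607 CPM in that cluster, P4hb at 350 CPM in gland duct-like cells and P3h3 at 125 CPM in that cluster. Others with their highest level elsewhere were P4ha1, P3h2 and Colgalt2 in olfactory ensheathing glia-like cells (63.2, 13.1 and 21.8 CPM), Plod1 and Plod3 in endothelial-like cells (80.1 and 60.9 CPM), Plod2 in sustentacular-like cells (78.6 CPM) and Colgalt1 in macrophage-like cells (81.9 CPM). None of these others was resolved. P3h1, the prolyl 3-hydroxylase, was at 173 CPM in the osteoblast-like and 45.7 CPM in the fibroblast-like sub-cluster.

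Of 9 measured folding and export genes 5 were highest in the fibroblast-like cluster and 2 were resolved there. Serpinh1, the collagen chaperone HSP47, led at 1008 CPM, with 1731 CPM in the osteoblast-like and 614 CPM in the fibroblast-like sub-cluster. Hspa5 was at 499 CPM in respiratory ciliated-like cells. Fkbp10 was at 172 CPM in the fibroblast-like cluster, with 364 CPM in the osteoblast-like and 76.2 CPM in the fibroblast-like sub-cluster. In olfactory ensheathing glia-like cells Fkbp10 was at 111 CPM and Fkbp14, highest there, at 58.9 CPM. Mia3 was at 130 CPM in mature OSN-like cells and Creb3l2 at 94.4 CPM in gland duct-like cells. Of these Hspa5 was resolved, and Fkbp10, Mia3, Creb3l2 and Fkbp14 were not.

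Of 6 measured propeptide processing genes 4 were highest and resolved in the fibroblast-like cluster. Sparc led at 15573 CPM, with 36894 CPM in the osteoblast-like and 3896 CPM in the fibroblast-like sub-cluster, against 2883 CPM in endothelial-like cells. Pcolce, which enhances procollagen cleavage, was at 697 CPM. Its paralog Pcolce2 was highest in mature OSN-like cells at 610 CPM in library 2 and 744 CPM in library 1, resolved against 239 CPM in immature OSN-like cells. Furin was highest in Bowman's gland-like cells at 169 CPM and was not resolved. Of 6 measured crosslinking genes 4 were highest in the fibroblast-like cluster, led by Lox at 334 CPM and Loxl1 at 230 CPM. Tgm2 was at 282 CPM in HBC-like cells and 269 CPM in endothelial-like cells, and Pxdn, which crosslinks type IV collagen, was at 37.1 CPM in olfactory ensheathing glia-like cells. Neither Tgm2 nor Pxdn was resolved.

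The 18 basement membrane partners had 8 members highest in HBC-like cells, 5 in the fibroblast-like cluster, 4 in endothelial-like cells and 1 in olfactory ensheathing glia-like cells. Those resolved in HBC-like cells were Lamb3, a laminin chain, at 293 CPM against 14.4 CPM in the next class, Dst at 460 CPM and Agrn at 177 CPM. Lama1, Lama3, Lama5 and Plec were also highest there, at 13.6, 39.4, 69.6 and 230 CPM, and were not resolved. Endothelial-like cells led for Hspg2 (perlecan, 490 CPM), Lama4 (173 CPM), Lamc1 (147 CPM) and Lamc3 (12.8 CPM), and olfactory ensheathing glia-like cells for Nid2 (78.5 CPM). Of these only Hspg2 was resolved, and the interval of Lamc3 ran from 3.49 to 32.8 CPM. Hspg2 was also the gene with the profile most like that of Col4a1 over the 18 classes, with a correlation of 0.97, followed by Sparc, Bgn, Dysf and Prex2.

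Collagen receptors were spread over classes, with 4 of 14 highest in the fibroblast-like cluster, all 4 resolved. The integrin genes Itga10 and Itga11, whose products bind fibrillar collagen, were at 235 and 96.9 CPM in the osteoblast-like sub-cluster and 4.35 and 2.18 CPM in the fibroblast-like sub-cluster. Itgb4 and Itga3, which bind laminin in basal cells, were at 252 and 88.2 CPM in HBC-like cells. Itga6 was at 462 CPM in olfactory ensheathing glia-like cells, with Itga2 at 13.1 CPM there, Itgb1 at 436 CPM and Itga1 at 215 CPM in endothelial-like cells, and Ddr1 at 299 CPM in respiratory ciliated-like cells. Cd44 was at 207 CPM in neutrophil-like cells, and Lair1 and Gp6 were at 99.0 and 13.9 CPM in macrophage-like cells. Itga2, Itgb1 and Gp6 were not resolved, and Gp6 was at 0 CPM in library 1 of macrophage-like cells.

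The breakdown list held proteases and also Timp1, Timp2 and Timp3, which encode inhibitors of metalloproteinases. Of its 13 measured members 7 were highest in the fibroblast-like cluster, 5 of them resolved, namely Mmp2, Mmp13, Mmp14, Timp1 and Timp2. The collagenase gene Mmp13 was at 845 CPM in the osteoblast-like and 144 CPM in the fibroblast-like sub-cluster. The 3 highest levels were those of Timp3 in olfactory ensheathing glia-like cells (2020 CPM), Ctsb in macrophage-like cells (1273 CPM) and Mmp9 in neutrophil-like cells (988 CPM). Mmp8 was at 951 CPM in neutrophil-like cells, Mmp15 at 115 CPM in Bowman's gland-like cells and Mmp16 at 79.2 CPM in mature OSN-like cells. Of these Mmp15 was not resolved, against 113 CPM in olfactory ensheathing glia-like cells. Over the 18 classes the genes most like Col1a1 were Twist1, Dpt, Tfap2b, Mmp13 and Inmt, with correlations from 0.94 to 0.96. These profiles take the fibroblast-like cluster as 1 class and do not show expression in the same cells. Dpt was at 183 CPM in the fibroblast-like and 0 CPM in the osteoblast-like sub-cluster, where Col1a1 and Mmp13 were higher.

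Between the libraries, most collagen levels in the fibroblast-like cluster differed by less than 2-fold. Of 32 chains with at least 10 CPM in either library 23 were higher in library 2, and the median log2 ratio of the 32 was 0.22, against 0.01 over all 9387 genes tested. The share of all genes higher in library 2 was not counted, so each count stands beside the median over all genes of the class. Col1a1 had a log2 ratio of 0.16, Col1a2 of 0.24 and Col3a1 of -0.28. Past a 2-fold difference were 5 chains higher in library 2 (Col2a1, Col4a6, Col7a1, Col10a1 and Col18a1), against 9.81% of all genes, and 1 lower, Col15a1, against 8.43%. Col15a1 had 11 UMIs in library 2 and 59 UMIs in library 1, and 16 of 107 cells of the fibroblast-like sub-cluster held 67 of them.

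The sub-clusters took different shares of the libraries, so the ratio was also taken within them. In the osteoblast-like sub-cluster 5 of 25 chains were higher in library 2, with a median log2 ratio of -0.45, against 0.10 over all genes there. In the fibroblast-like sub-cluster 16 of 26 were higher, with a median of 0.12, against 0.05. The direction of the pooled cluster thus did not hold within the osteoblast-like cells, and sub-cluster 3 had 3 cells in library 1, too few for a comparison.

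In HBC-like cells 8 of 13 chains were higher in library 2, with a median log2 ratio of 0.06, against 0.01 over all genes there. Past a 2-fold difference were Col1a1, with 37 UMIs in library 2 and 2 UMIs in library 1, and Col1a2, with 25 and 6 UMIs in libraries 2 and 1, against 1.3% of all genes. None was past 2-fold lower, against 0.924%. In INP-like cells Col6a1 had 53 UMIs in library 2 and 1 UMI in library 1, 34.6 and 1.72 CPM, spread over 35 cells, and 4.49% of all genes passed 2-fold in that direction. No chain passed it in the other direction there, against 2.25% of genes. In olfactory ensheathing glia-like cells 13 of 25 chains were higher in library 2, 3 past 2-fold each way, against 14.2% and 15.1% of all genes. The median log2 ratio of the chains there was 0.05, against -0.04 over all genes. In endothelial-like cells 13 of 20 were higher in library 2, with a median log2 ratio of 1.75, against -0.01 over all genes there. Past 2-fold were 12 chains higher in library 2, against 19.1% of all genes, and 3 lower, against 15.7%. The 12 had from 0 to 7 UMIs in library 1, so depth limits these values. Col1a2, 1 of the 12, had 45 UMIs in library 2 and 7 UMIs in library 1. The single endothelial-like cell that held most of its UMIs, given above, therefore lay in library 2, and the Col1a2 ratio rests largely on it.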

How the data were processed

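Per the submitters' processing notes, the authors ran Cell Ranger 3.0.2 with the mm10 build. The deposited matrix, in which the authors merged both libraries, holds UMI counts as whole numbers. The sources used here do not say whether the merge equalised depth. Cells with fewer than 1000 UMIs, fewer than 500 genes or more than 10% mitochondrial UMIs were removed (2724 of library 2, 1469 of library 1). Counts were log-normalised, and 2000 variable genes without collagens, 30 principal components, 15 neighbours and Leiden resolution 1 gave the clusters (Python 3.11.15, scanpy 1.11.5, leidenalg 0.10.2). A cluster was named by marker lists with at least 3 members among its 50 leading genes. Scrublet called 7 cells, 0.0844%, so the caller had not worked and doublets were kept. Cluster 9, 322 cells with a median of 13343 UMIs and both neuronal and sustentacular markers, stays unnamed. That rule, and the sub-clustering at resolution 0.5, were chosen after seeing the clusters. The members and lists were chosen with earlier results of these data known. 

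All 44 chains were named, with further genes from 8 lists, namely the 3 with the highest CPM and those highest outside the fibroblast-like class, and the 5 genes most like a leading chain. Intervals are exact and cover counting error only. With 1 library per side there is no test, and cells are not replicates. For comparisons of shares of cells, each was thinned to 2000 UMIs, leaving out shallower cells. All gene coordinates are those of mm10 from an annotation that matched 30934 genes and all chains. Alternatives were other cell filters, cluster settings, class sizes, UMI minimums and ways of averaging, each library alone, and the source rule with sub-clusters ranked. A few marker and pathway genes counted in these lists are not reported here.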

Additional observations from a re-analysis of the deposited data

How the results depend on the processing

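Against 26 resolved sources, 19 to 30 chains were resolved under 17 alternatives, and 14 to 26 of the 26 kept their class, 14 with the cluster split, 23 in library 2 alone and 18 in library 1 alone, where Col23a1 was new and 19 were resolved. Over 24 chains with at least 100 UMIs, 372 of 406 values of source over next class kept direction and side of the rule, 20 kept the direction only and 14, of 11 chains, reversed. Many of the 406 values repeat the main ones. Other resolutions, another seed and collagens allowed in clustering left the fibroblast-like class at 168 cells, and other UMI minimums do not change the ratio. With at most 5% mitochondrial UMIs the separate cluster of 21 osteoblast-like cells was under 30 cells and not ranked. The olfactory ensheathing glia-like class was not ranked there either. The share of collagen UMIs in the fibroblast-like class (85.1%) was 82.5% without a cell filter, 86.0% with high doublet scores removed, 85.5% in library 2 and 84.3% in library 1, and 8.81% with at most 5% mitochondrial UMIs, where 21 osteoblast-like cells formed a separate cluster with 84.4%. Cells with both type I chains (93.5%) were 97.1% in library 2 and 87.7% in library 1. The median log2 library ratio (0.22) was -0.45 in osteoblast-like cells alone. The log2 ratio of source over next class reversed for Col4a5 to -0.0013 and Col9a1 to -3.73 without a cell filter, Col22a1 to -0.94 with at most 5% mitochondrial UMIs, Col9a1 to -0.69 at resolution 2, where its cells joined the gland duct-like class, Col12a1 to -0.0028 as a mean over cells, and Col4a5 to -0.11 with pericyte-like cells ranked. With the fibroblast-like cluster split, so that its largest sub-cluster stood for the class, it reversed for Col1a1 (-5.30), Col1a2 (-4.70), Col5a1 (-2.22), Col5a2 (-3.12), Col6a2 (-0.049), Col6a3 (-0.80), Col11a2 (-7.93) and Col22a1 (-8.89). For the other reversals the cause was not tested. Ranking smaller classes, splitting the cluster and leaving out the highest cells were chosen after seeing the data. No paired analysis was possible because there is 1 library per side and no test. Classes of few cells and chains under 100 UMIs limit what this depth can show.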

Other observations

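Col27a1 in mature OSN-like cells had 35 UMIs in 17 cells of library 2, 10.7 CPM, and no UMI in library 1, where the exact 95% interval reaches 1.30 CPM. No cell held more than 14.3% of these UMIs. Col5a2 was counted without its type V partner Col5a1 in gland duct-like cells, with 64 UMIs of Col5a2 and 0 of Col5a1, a Col5a2 share of 100% (94.4% to 100%), against 74.8% in the fibroblast-like cluster.

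Sub-cluster 3, 20 cells that no marker list named, held basal and basement membrane chains beside stromal ones. Col7a1 was at 287 CPM there, from 24 UMIs in 12 cells, Col23a1 at 251 CPM, Col4a2 at 766 CPM and Col4a6 at 108 CPM. In HBC-like cluster 6 Col7a1 was at 272 CPM, but Col17a1, at 424 CPM in that cluster, had no UMI in sub-cluster 3, with an interval that reaches 44.1 CPM. Of these cells 17 were in library 2 and 3 in library 1, and what kind of cell they are was not tested.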
